A study of Mus musculus with 4 samples.

Results

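The comparison is between whole trachea of a wild-type (WT) mouse and whole trachea of a mouse labelled GEMC1 null, with 1 Affymetrix array on each side, so it takes 2 of the 4 arrays of the series. The members were chosen by the tissue and genotype in the labels. Both mice were males of 39 days on the same mixed background of C57BL/6 x 129, neither is labelled with a treatment, and both tracheas were dissected fresh and never cultured. The part of the gene that was deleted, and whether RNA of several animals was pooled, are nowhere stated in the labels. With 1 array a side there is no replicate check, no error and no test, and genes are counted by the size of the difference alone. Levels are log2 RMA signals (RMA is a method that corrects, normalizes and summarises probe intensities), and every difference is the null array minus the WT array, so a value of -1 means 2-fold lower and 1 means 2-fold higher.

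Gemc1, whose current symbol is Gmnc, encodes a relative of geminin that is known to switch on the multiciliated cell programme, in which a cell makes many centrioles, docks them as basal bodies and builds a motile cilium on each. Each cilium beats through rows of dynein arms on its microtubule doublets, which radial spokes and a central pair coordinate. In the trachea such cells stand among secretory and basal cells in an epithelium that lies on cartilage, smooth muscle, nerves and glands. A dissected trachea can also bring oesophagus with its squamous lining, skeletal muscle of the neck, fat, lymph node, thyroid and lung. Transcripts of a whole organ therefore mix all of these, and in such samples fewer cells of a type and less RNA per cell cannot be told apart.

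Over all probe sets the WT array had a median of 5.91 and the null array one of 5.92. The probe sets labelled as negative controls, whose targets were not checked, had medians of 5.98 (WT) and 5.74 (null). Of 30683 named genes, 20151 passed the level filter, that is, their signal was at or above the array median on at least 1 of the 2 trachea arrays. That filter lies close to the negative controls, so the dim genes among those that passed have levels that the arrays hardly separate from background. The negative controls spread widely, with 95th percentiles of 8.87 (WT) and 8.70 (null), close to the positive-control medians of 8.86 and 8.83. Where the dimmer of the 2 levels lay under that percentile of its array, the fold of a named gene is given as "at least", against the negative-control median or the dimmer level itself, whichever was higher. Across all probe sets the 2 tracheas correlated at r = 0.945. At least 2-fold lower on the null array were 1559 of the genes that passed (7.74%), and at least 2-fold higher were 1274 (6.32%). These counts use the measured levels, and 1399 and 1110 genes reached 2-fold by that bound. A gene that passed only through the array on which it was higher had to differ, so counts over the genes that passed describe them and are no support for a direction. The median difference over all genes that passed was 0.03, and 90% of the genes lay between -1.43 and 1.16.

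4 genes mark 4 of the groups: cilia, airway, squamous lining and skeletal muscle. Sntn (NCBI Gene 218739), a protein of the tip of motile cilia, had a WT level of 9.41 and a null level of 4.66, a difference of -4.74 or at least 12.7-fold lower. Bpifa1 (18843), an antimicrobial protein secreted by airway cells, stood at 12.99 and 6.02, which is at least 125-fold lower. In the other direction, Krt4 (16682), a keratin of the squamous lining of the oesophagus and mouth, stood at 7.18 and 13.48, or at least 78.8-fold higher. Atp2a1 (11937), the calcium pump of fast skeletal muscle, stood at 6.44 and 12.97, or at least 92.2-fold higher. The plot of all gene levels shows these groups leaving the diagonal on both sides.

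**Figure D1:**
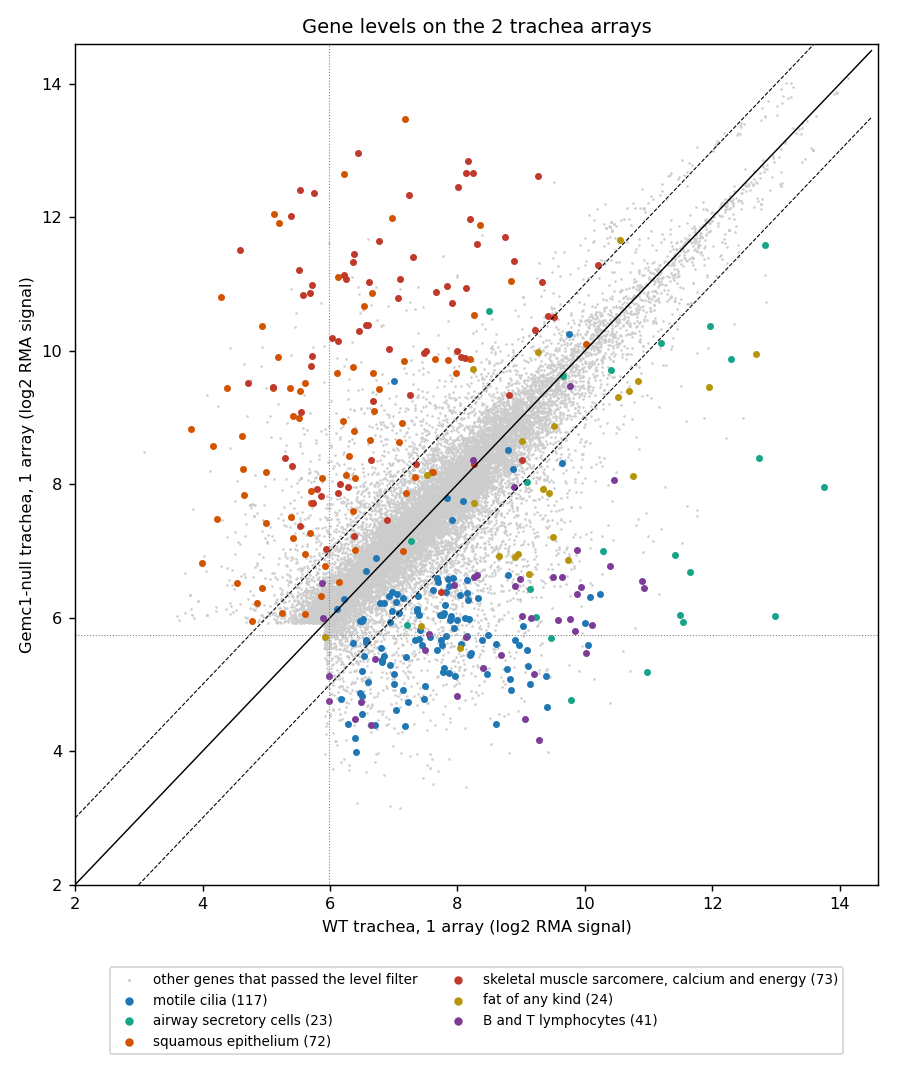
Level of each of the 20151 genes that passed on the WT trachea array (x axis) and on the Gemc1-null trachea array (y axis), both as log2 RMA signal. Coloured points are members of 6 gene groups, dashed lines mark 2-fold, and dotted lines mark the negative-control medians of 5.98 and 5.74. Motile cilia, secretory and lymphocyte genes lie below the diagonal, and squamous and skeletal muscle genes lie above it.

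The genes furthest from the diagonal were mostly not cilia genes. By the bound, 5 genes were at least 32-fold lower, and all 5 were in the airway lists: Bpifa1, Scgb3a1, Reg3g, Bpifb1 and Sec14l3. Of these, Sec14l3 was also lower in the null oviduct of the series, at 9.45 and 6.00, as many cilia genes were. Its place outside the cilia genes is therefore uncertain. The oviduct differences of the others were -0.25, 1.16, 0.03 and -0.52 in the order named. Of 29 genes at least 16-fold lower by the bound, 22 stood in a list, with 11 airway, 7 lymphoid and 2 ciliated genes among them. On the other side, 14 of 16 genes at least 32-fold higher by the bound stood in a list, 5 of them squamous and 9 of muscle. The WT level of a gene over background limits how far down these arrays can show it, and the motile cilia genes had WT levels of 6.12 to 10.24.

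The promoters of the cilia genes were searched for letters known from cilia genes. RefSeq windows (assembly GRCm38.p6) running from 250 bases before to 50 bases after the gene start were searched on both strands for 2 motifs. GTTGCC is the core of 1 arm of the X-box, the element that RFX factors bind. GTAAACA is a site of forkhead factors such as FOXJ1. The following 4 windows were picked because they hold GTTGCC, which fewer than 1 in 2 of the cilia genes with a window do. They are those of the marker Sntn, of Cfap44, a doublet-associated protein of the cilium, and of Enkur, a calmodulin-binding cilium protein. The last is that of Mlf1, which was higher on the null array. The 2 motifs share no bases in these windows. Capitals mark the matches to them, and each window reads in the direction of its gene.
Sntn: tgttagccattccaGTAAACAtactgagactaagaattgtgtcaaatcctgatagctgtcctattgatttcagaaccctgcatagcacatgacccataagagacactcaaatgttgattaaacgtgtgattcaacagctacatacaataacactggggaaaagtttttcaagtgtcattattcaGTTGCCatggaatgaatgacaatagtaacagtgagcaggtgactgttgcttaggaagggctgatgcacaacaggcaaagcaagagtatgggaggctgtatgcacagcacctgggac
Cfap44: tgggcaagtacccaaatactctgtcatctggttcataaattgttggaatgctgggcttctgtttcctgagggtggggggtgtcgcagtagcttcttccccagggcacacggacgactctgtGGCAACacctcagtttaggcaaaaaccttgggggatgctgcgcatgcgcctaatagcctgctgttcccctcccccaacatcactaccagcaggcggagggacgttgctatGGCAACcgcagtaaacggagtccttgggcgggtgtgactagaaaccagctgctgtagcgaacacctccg
Enkur: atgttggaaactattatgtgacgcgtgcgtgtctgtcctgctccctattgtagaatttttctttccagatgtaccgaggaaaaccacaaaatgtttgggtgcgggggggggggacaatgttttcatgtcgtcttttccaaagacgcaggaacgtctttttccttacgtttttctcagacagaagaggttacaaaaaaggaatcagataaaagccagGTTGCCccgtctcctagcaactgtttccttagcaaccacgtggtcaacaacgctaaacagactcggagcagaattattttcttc
Mlf1: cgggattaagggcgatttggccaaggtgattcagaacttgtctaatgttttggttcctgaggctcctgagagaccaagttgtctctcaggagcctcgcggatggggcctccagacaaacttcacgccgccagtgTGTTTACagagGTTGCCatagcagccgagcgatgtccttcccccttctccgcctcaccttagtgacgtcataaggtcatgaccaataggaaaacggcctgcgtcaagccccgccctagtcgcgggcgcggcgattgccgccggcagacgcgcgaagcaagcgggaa

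The Sntn window is chr14:13670626-13670925 on the plus strand, with GTTGCC at -66 and GTAAACA at -236 from the gene start. That of Cfap44 is chr16:44394549-44394848 on the plus strand, with the GTTGCC letters on the other strand at -129 and -19. The window of Enkur is chr2:21205316-21205615 on the minus strand, with GTTGCC at -34. Mlf1, at chr3:67373847-67374146 on the plus strand, has GTTGCC at -105 and, on the other strand, the forkhead letters at -116. Dnah5, Dnah6 and Spata18, which were among the lowest cilia genes, had neither motif in their windows.

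Over the group, GTTGCC was present in the windows of 45 of 94 motile cilia genes that passed and had a window, which is 47.9%, against 14.1% of 27025 genes with a window and 15.2% of those that passed. Within the group 44.4% of 72 genes that were at least 2-fold lower had it, and 59.1% of the 22 that were not. The difference between these shares was not tested, and most of the 22 had a difference below 0 as well. It was present in 43.3% of 30 genes of intraflagellar transport and the BBSome, 16.0% of 50 squamous genes, 23.1% of 52 skeletal muscle genes and 6.67% of 15 secretory genes. GTAAACA was present in 7 of 94 (7.45%), against 4.05% of all windows. These are matches of letters and show no binding.

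Gmnc itself did not pass the level filter. Its WT level was 5.90 and its null level 4.63, each under the median of that array's negative controls, so its level does not check the labels. Of 11 regulators of the multiciliated programme that passed, 1 was lower by 2-fold or more and 0 higher, with a median difference of -0.28, a share near that over all genes. That member was Myb, a factor known to act early in centriole production, at 8.54 and 6.15, or at least 5.23-fold lower. Rfx3, an RFX factor of cilia genes, differed by -0.94, Ccno, a cyclin of centriole production, by -0.78, and Mcidas, the relative of Gmnc, by -0.56. Trp73, a p53 relative that acts upstream of FOXJ1, stood at 7.58 and 7.74, and Foxn4 at 7.10 and 7.22. Tfdp1, the partner of E2F factors, stood at 8.74 and 9.35, which is the largest positive difference among the regulators, at 0.61. Foxj1 shares its probe set with another gene here and has no level of its own.

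Genes of the motile cilium were lower on the null array almost throughout. Of 117 that passed, out of 128 listed, 92 were at least 2-fold lower, 1 was higher, and 24 lay within 2-fold. The median difference was -1.73, against 0.03 over all genes. Their median WT level was 7.70 and their median null level 5.73, and 59 of the 117 had null levels under the negative-control median. With every level raised to at least that median, 81 were still lower by 2-fold or more.

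The dynein arms, the motors of the beat, were counted by arm. Inner arm genes were lower in 11 of 11 cases, with a median difference of -2.11 and a range from -4.27 to -1.42. Dnah6, an inner arm heavy chain, stood at 9.40 and 5.13, Dnah12 at 8.61 and 4.40, and Dnah3 at 8.84 and 4.92, which are at least 12.6-fold, 7.28-fold and 8.54-fold lower. Outer arm genes were lower in 6 of 9 cases, with a median of -1.20. Dnah5, the outer arm heavy chain most often mutated in primary ciliary dyskinesia, stood at 9.11 and 5.28, or at least 10.3-fold lower, and Dnah9, its partner, at 8.60 and 5.61. Dnah17, an outer arm chain known from sperm, stood at 6.12 and 6.13, and the light chain gene Dnal4 at 6.56 and 6.70. The difference between the arms was not tested, and the lists are short. The median WT level was 7.20 in the outer arm list and 7.81 in the inner arm list. A dimmer gene can show less of a fall on these arrays.

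Proteins that assemble and dock the arms were lower in 14 of 20 cases, with a median of -1.29. Ccdc39, a ruler of the doublet repeat, stood at 7.79 and 5.25, and Lrrc6, a cytoplasmic assembly factor, at 7.49 and 4.98. Gas8, a subunit of the dynein regulatory complex that was cloned as a growth-arrest gene, stood at 7.84 and 7.79, and Spag1 at 6.22 and 6.28. Assembly factors and regulatory complex members were thus found on both sides of the 2-fold line.

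Radial spoke and central pair genes had the lowest median of the cilia lists by measured levels, -2.20, with 16 of 18 lower. Of the 18, 11 had null levels under the negative-control median. With levels raised to that median, their median was -1.71 and that of the inner arm list -2.03, so the ranking did not hold. Rsph4a, a spoke head protein, stood at 8.82 and 5.08, or at least 8.44-fold lower, and Hydin, a giant protein of the central pair, at 9.09 and 5.52, or at least 10.2-fold lower. Nme5, a spoke component, stood at 9.03 and 5.87, which is at least 8.96-fold lower. The 2 spoke genes within 2-fold were Rsph3a, at 8.87 and 8.23, and Rsph6a, which is known from sperm, at 6.72 and 6.90.

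Tektins and other proteins in or on the doublets were lower in 13 of 17 cases, with a median of -1.41. Cfap206 stood at 8.97 and 5.59, Saxo2 at 8.22 and 5.47, and Cfap52 at 7.67 and 5.52. Cfap20, a doublet protein that primary cilia also contain, stood at 8.09 and 7.74. Among other genes of ciliated cells 32 of 42 were lower, with a median of -1.90. Spata18 stood at 10.05 and 5.59, or at least 19.7-fold lower, and Cdhr3, a cadherin of the ciliated cell surface and receptor of rhinovirus C, at 10.01 and 5.92. Rgs22, at 9.14 on the WT array, was at least 10.5-fold lower. Cfap65 stood at 10.24 and 6.36, and Cdhr4 at 10.08 and 6.31. These 5 followed Sntn as the largest differences of that list.

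**Figure D2:**
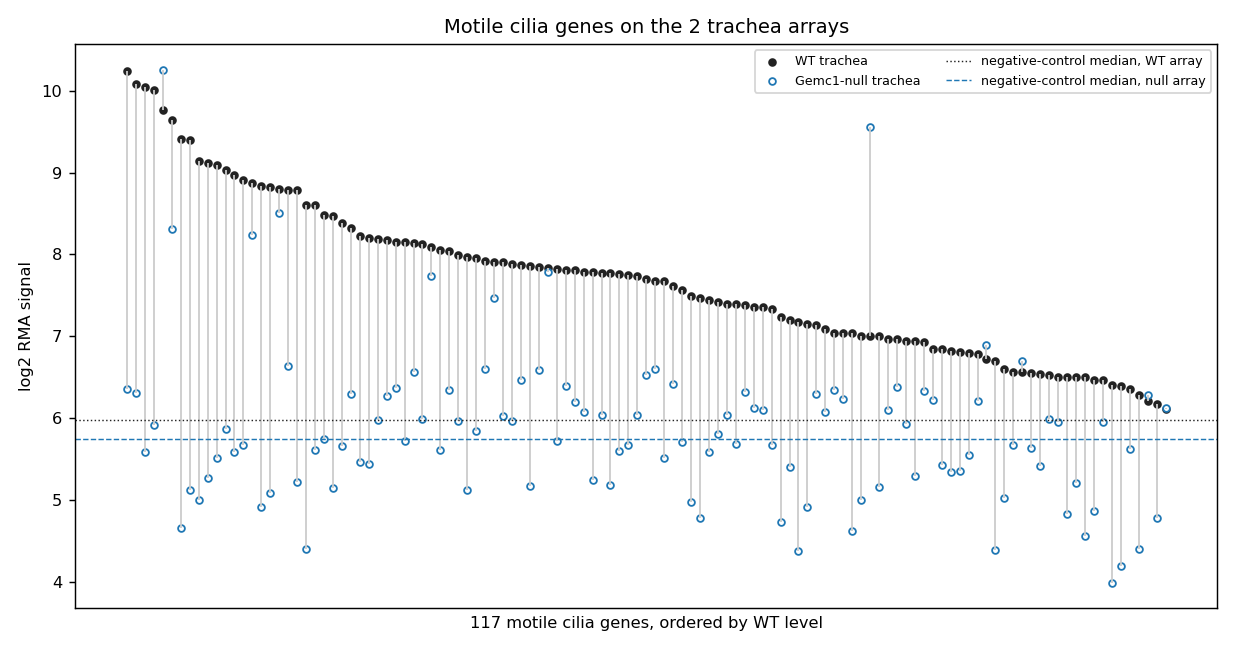
Levels (y axis, log2 RMA signal) of the 117 motile cilia genes that passed, ordered along the x axis by WT level, with filled points for the WT trachea array, open points for the Gemc1-null array and a line joining each gene's pair. The horizontal lines mark the negative-control medians of 5.98 (WT) and 5.74 (null). WT levels run down from 10.24 while most null levels scatter around the controls, and the open point at 9.55, well above its WT partner, is Mlf1.

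Only 6 of the 117 motile cilia genes had a difference above 0. These were Mlf1, Tppp3, Dnah17, Dnal4, Rsph6a and Spag1. Mlf1, a cilium-associated gene also known from muscle and blood cells, was the 1 member at least 2-fold higher, at 7.01 and 9.55 or at least 5.83-fold. Tppp3, a tubulin-binding protein that stromal cells also make, stood at 9.76 and 10.26. The part of other tissues in these levels was not tested.

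The size of the differences went with the WT level. The 39 cilia genes with the lowest WT levels, from 6.12 to 7.09, had a median difference of -1.01 and 21 of them were at least 2-fold lower. The 39 with the highest WT levels, from 7.97 to 10.24, had a median of -2.76 and 35 lower. On the null array the lowest, middle and highest 39 had medians of 5.62, 5.97 and 5.72, all near the negative-control median of 5.74, so how much expression remained cannot be read from them. Across the 117 genes the WT level and the difference correlated at r = -0.61 (Spearman rho = -0.58), a description across genes in which the WT level enters both quantities.

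Genes of centriole production and of ciliary transport, which non-ciliated cells also use, had medians nearer 0. In the deuterosome and centriole list 4 of 18 were lower and 0 higher, with a median of -0.48. Deup1, the scaffold of the deuterosome, stood at 6.40 and 4.91. Its null level lay below the negative-control median and its bound is only 1.58-fold, so that with levels raised to the control median 3 of the 18 were lower. Cetn4, a centrin of multiciliated cells, stood at 6.79 and 5.37, Ccdc78 at 7.95 and 6.82, and Cep192, a general centrosome protein, at 7.59 and 6.52. Cep152 stood at 6.18 and 6.05, and Poc1a at 6.63 and 6.60. Of 34 genes of intraflagellar transport and the BBSome, the carriers that build and empty every cilium, 3 were lower and 0 higher, a share near the 7.74% over all genes, with a median of -0.44. They were Traf3ip1 at 8.18 and 6.70, Wdr19 at 7.24 and 6.20, and Ift88 at 7.73 and 6.70. Bbs2, a BBSome subunit, stood at 7.81 and 7.79, and Ift27 differed by -0.04.

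The general epithelium list gives a scale for how much of the cilia difference exceeds that of the epithelium as a whole. Its 19 genes had a median difference of -0.76. Set against that median, 740 of all genes (3.67%) were at least 2-fold lower and 5678 (28.2%) higher. On this scale 58 of the 117 genes of motile cilia were lower, with a median of -0.97. The inner arm list kept 8 of 11, the spoke and central pair list 11 of 18 and the other ciliated cell genes 24 of 42. The outer arm list kept 3 of 9. Here the median of the regulators was 0.48, that of the centriole list 0.27 and that of the transport list 0.32. The list mixes genes of all airway epithelial cells with genes that squamous epithelium shares, so it is a scale and not a count of cells.

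The oviducts of the series, from female mice of 65 days, are 2 other arrays that share no control with the tracheas. Over the genes that passed in trachea, 454 (2.25%) were at least 2-fold lower in the null oviduct and 142 (0.705%) higher. The motile cilia genes had a median of -1.79 there, against -1.73 in trachea, and 86 of the 92 lower in trachea were lower in both. Over all genes that passed, 247 of the 1559 lower in trachea were lower in both. Across the 117 genes the 2 sets of differences correlated at r = 0.85 (rho = 0.86), a description across genes. The same probe sets serve both tissues, and in trachea the difference went with the WT level (r = -0.61). The correlation is therefore no measure of how alike the null effect was. The other groups that differed in trachea had oviduct medians near 0, at 0.22 for secretory, 0.11 for squamous, 0.12 for skeletal muscle, 0.33 for fat and 0.20 for B and T cell genes. Markers of these groups lay near background in oviduct. On its WT and null arrays Bpifa1 stood at 4.93 and 4.68, Krt4 at 5.78 and 5.88, and Atp2a1 at 6.42 and 6.43. The control medians of those arrays were 5.77 and 5.79. A gene that an array hardly detects can show little difference, so these medians are no contrast with the cilia genes. Other members were bright there, such as Scd1 at 10.61 and 11.46. No test of the difference between the tissues could be made with 1 array in each group. In oviduct the null array had the higher level of Gmnc, 8.86 against 6.11, a difference of 2.75. The part of the gene that was deleted is not stated, so this level does not check the oviduct labels, which were taken as given.

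Genes of airway secretory cells, which make mucus, antimicrobial proteins and detoxifying enzymes, had a lower median difference than the cilia genes, a contrast that was not tested. Their median WT level was 10.97, against 7.70 for the motile cilia genes. The arrays could therefore show a larger fall in the secretory genes. Of 23 secretory genes that passed, 19 were at least 2-fold lower and 1 was higher, with a median of -3.22. After Bpifa1, the largest differences were those of Scgb3a1, a small secretoglobin, at 13.76 and 7.96, or at least 55.5-fold lower, and Reg3g, an antibacterial lectin, at 10.97 and 5.19, or at least 37.4-fold lower. Bpifb1, a relative of Bpifa1, stood at 11.54 and 5.93, and Sec14l3, a lipid carrier, at 11.49 and 6.04. Muc5b, the main airway mucin, stood at 11.65 and 6.69, or at least 31.2-fold lower. All of these null levels lay under the 95th percentile of the negative controls, that of Reg3g also under their median.

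Club cell genes were not all equally low. Scgb1a1, the defining secretoglobin of club cells, stood at 12.74 and 8.39, which is at least 20.4-fold lower. Cyp2f2, their cytochrome P450, stood at 12.83 and 11.59, only 2.37-fold lower. Fmo2, a flavin monooxygenase, stood at 9.66 and 9.63, and Spdef, a factor of mucous cells, at 7.28 and 7.16. Aldh3a1, an aldehyde dehydrogenase that squamous epithelium also makes, was the 1 member that was higher, at 8.49 and 10.60. Set against the epithelium median, 14 of the 23 secretory genes were still at least 2-fold lower.

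Gland genes were lower in 5 of 14 cases, with a median of -0.56. Ltf, the iron-binding lactoferrin, stood at 11.52 and 7.12, or at least 21.2-fold lower, Pigr, the receptor that carries antibodies across epithelia, at 9.05 and 5.78, and Aqp5, a water channel, at 9.21 and 7.03. Lyz2, a lysozyme that macrophages also make, stood at 12.84 and 10.73. The gland gene Prol1 stood at 6.20 and 6.24, near the controls on both arrays.

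The simple epithelium keratins of the general epithelium list were lower on the null array. Krt8 stood at 10.26 and 7.22, or at least 8.23-fold lower, Krt18, its partner, at 9.67 and 6.98, and Krt19 at 9.75 and 7.91. In the general epithelium list 8 of 19 were lower and 0 higher. Its tight junction gene Cldn3 stood at 9.08 and 7.39, Sox2, a factor of both airway and oesophagus, at 8.49 and 8.65, and Nkx2-1, the factor of lung, trachea and thyroid, at 7.85 and 7.09. Basal cell genes, which airway and squamous basal layers share, were higher in 9 of 14 cases and lower in 0, with a median of 1.21. Krt14 stood at 6.34 and 10.13, or at least 13.8-fold higher, and Krt5 at 9.52 and 12.54. Krt17, a further keratin of that list, stood at 7.75 and 7.69. Trp63, the factor of basal cells, stood at 6.92 and 9.03, and Ngfr, a receptor that marks airway basal cells, at 8.30 on both arrays.

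Rare airway cells showed no member past 2-fold among 11, with a median of -0.25. Over all genes 17318 of 20151 lay within 2-fold as well. Foxi1, the factor of ionocytes, stood at 7.22 and 6.97, and Gfi1b, a tuft cell factor, at 6.60 and 6.53. Genes of the alveolar lung list were lower in 8 of 11 cases, with a median of -2.05. Not all of them are confined to lung. On the WT oviduct array Slc34a2 stood at 9.22 and Napsa at 8.49, against 8.57 and 8.95 on the WT trachea array. Sftpc and Sftpa1 stood at 6.40 and 5.67 on that oviduct array. The count is therefore no measure of lung tissue. Sftpc, the surfactant protein of alveolar type 2 cells, stood at 10.60 and 5.50, or at least 29.0-fold lower, and Sftpa1 at 9.06 and 5.79. The type 1 cell gene Ager stood at 7.95 and 7.05, within 2-fold. Surfactant protein C is a defining gene of distal lung, so the WT level of Sftpc was a level of a gene that tracheal epithelium is not known for.

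**Figure D3:**
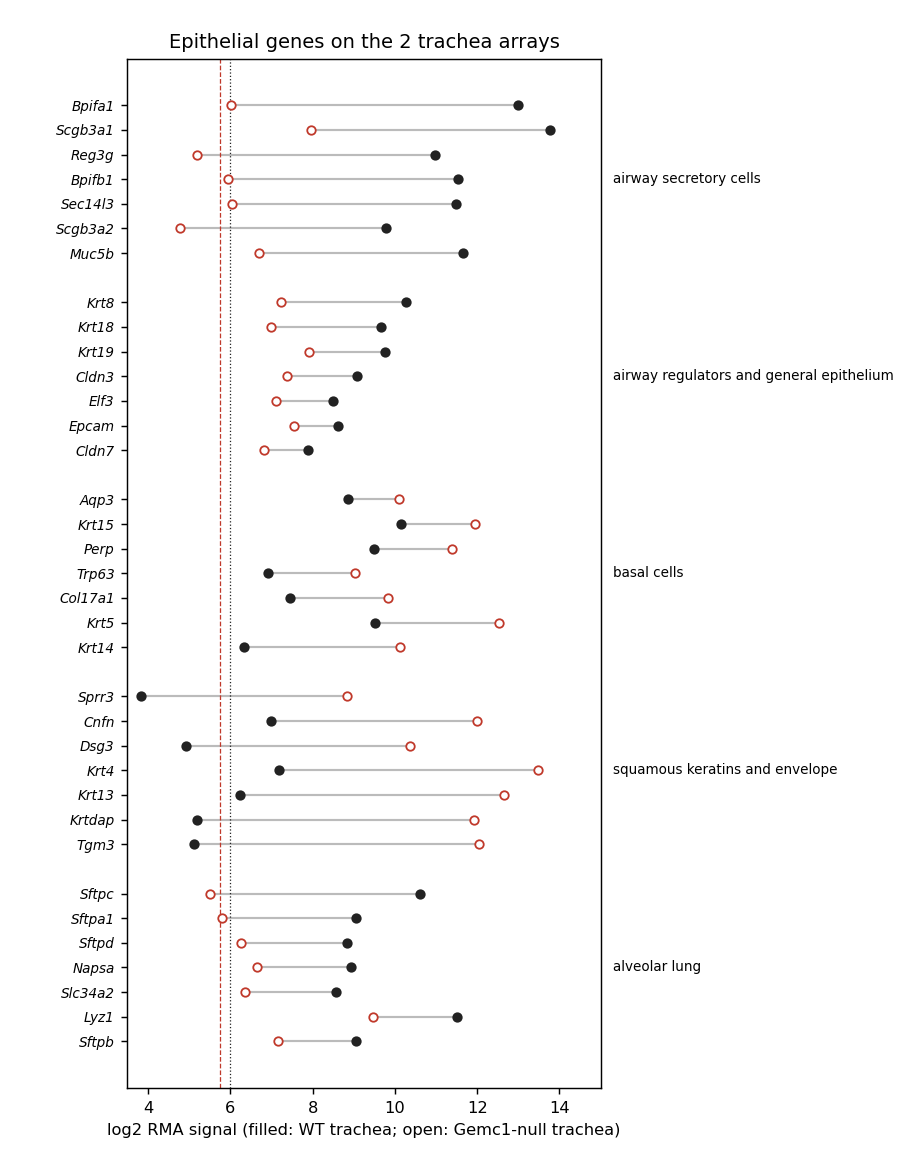
Levels (x axis, log2 RMA signal) of the 7 genes with the largest absolute differences in each of 5 epithelial lists, filled for the WT trachea array and open for the Gemc1-null array. The vertical lines mark the negative-control medians of 5.98 (WT, dotted) and 5.74 (null, dashed). Open points lie left of filled ones for the secretory, general epithelium and alveolar genes and right of them for the basal and squamous genes.

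Squamous epithelium genes, beside those of skeletal muscle, were the other large group that was higher on the null array. Of 72 genes that passed, 60 were at least 2-fold higher and 0 were lower, with a median of 2.34, and 36 of the 72 had WT levels under the negative-control median. In the list of keratins and envelope proteins 25 of 31 were higher. Tgm3, the transglutaminase that cross-links the cornified envelope, stood at 5.13 and 12.06, or at least 67.2-fold higher, and Krtdap at 5.19 and 11.92, or at least 61.2-fold. Krt13, the partner of Krt4, stood at 6.23 and 12.66, which is at least 86.3-fold, and Dsg3, a desmoglein of stratified epithelia, at 4.93 and 10.37. Lor, a main protein of the envelope, stood at 8.36 and 11.89. Some keratins and envelope genes known from skin lay within 2-fold, with Krt10 at 5.93 and 6.77, Krt16 at 5.86 and 6.33, Flg at 7.20 and 7.87 and the nail keratin Krt84 at 5.61 and 6.06. Ivl and Crnn did not pass the level filter.

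Proteases, lipid enzymes and defence genes of squamous cells were higher in 35 of 41 cases, with a median of 2.13. Serpinb3a, a protease inhibitor, stood at 4.28 and 10.81, or at least 28.3-fold higher, and Defb4, a beta-defensin, at 4.39 and 9.44. Klk14, a kallikrein protease of shedding, stood at 6.13 and 11.10, and Gsdmc, a gasdermin, at 4.17 and 8.57. Cstb, a protease inhibitor of many cells, stood at 10.03 and 10.10, and Alox12, a lipoxygenase also of platelets, differed by -0.15.

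Skeletal muscle genes of the sarcomere, of calcium handling and of energy were higher in 65 of 73 cases and lower in 1, with a median of 3.23. Thick filament and Z disc genes were higher in 31 of 31. Myot, a Z disc protein, stood at 4.59 and 11.51, or at least 45.9-fold higher, and Neb, the ruler of the thin filament, at 5.75 and 12.37, or at least 83.6-fold. Of the myosin heavy chains, the fast Myh1 stood at 5.52 and 12.42, Myh4 at 5.69 and 10.86, and Myh2 at 5.71 and 9.77. Myh8, the perinatal chain, stood at 5.38 and 12.02, or at least 65.6-fold higher, while Myh3, the embryonic chain, stood at 5.53 and 7.38. Des, a filament protein that smooth muscle shares, had a small difference, from 10.21 to 11.28.

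Thin filament genes were higher in 10 of 15 cases, with a median of 3.10. Among the troponins, picked here after their values were seen, the fast isoforms Tnnc2, at 6.38 and 11.45, and Tnnt3, at 8.01 and 12.46, were at least 33.5-fold and 21.8-fold higher. The slow troponins Tnni1, at 6.90 and 7.47, and Tnnt1, at 6.38 and 7.23, lay within 2-fold. Tnnc1, which slow muscle and heart share, was the 1 skeletal muscle gene that was lower, at 7.74 and 6.39. Among calcium and energy genes 24 of 27 were higher, such as Ryr1, the calcium release channel, at 6.35 and 11.33, and Ckm, muscle creatine kinase, at 8.14 and 12.66. Asph, which many tissues make, stood at 8.26 and 8.30.

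Genes of muscle stem cells and of the nerve-muscle junction were higher in 11 of 15 cases, and their differences lay between 0.46 and 4.45. Myf6, a myogenic factor of mature fibres, stood at 4.99 and 9.44, and Musk, the receptor kinase of the junction, at 5.60 and 9.34. Pax7, the factor of satellite cells, stood at 6.55 and 7.24, within 2-fold. Chrng, the fetal subunit of the acetylcholine receptor, stood at 6.27 and 6.73.

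Heart and smooth muscle did not follow skeletal muscle. Of 10 heart genes 4 were lower and 0 higher, with a median of -0.85. They were Nppa, the atrial natriuretic peptide, at 9.95 and 5.77, or at least 18.1-fold lower, Myl7, the atrial myosin light chain, at 10.83 and 7.47, Myh6, the atrial and adult heart myosin of mice, at 9.42 and 6.73, and Tnni3, the heart troponin I, at 8.43 and 6.62. The heart factor Nkx2-5 stood at 7.61 and 7.63, and Hcn4, the pacemaker channel, at 6.57 and 6.56. Smooth muscle genes were mixed, with 4 of 14 lower, 3 higher and a median of -0.70. Cnn1, calponin, stood at 10.81 and 8.71, and Myh11, the smooth muscle myosin, at 10.77 and 9.24. Synm, an intermediate filament protein that skeletal muscle shares, stood at 7.88 and 9.65, and Hspb6 at 7.80 and 9.32.

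Fat genes were lower for the most part. In the list of fat of any kind 16 of 24 were at least 2-fold lower and 2 higher, with a median of -1.49. Pck1, the enzyme of glycerol synthesis, stood at 9.73 and 6.87, Scd1, a desaturase, at 12.68 and 9.96, and Adipoq, the adipocyte hormone adiponectin, at 8.05 and 5.55, or at least 4.94-fold lower. The 2 higher members were Slc2a4, the insulin-responsive glucose transporter, at 8.24 and 9.73, and Car3, a carbonic anhydrase, at 10.56 and 11.66, both known from muscle as well. Leptin, Lep, stood at 5.93 and 5.71, near the controls on both arrays. Ucp1, the uncoupling protein of brown fat, stood at 10.40 and 4.72, or at least 25.2-fold lower, and Cidea at 9.92 and 7.21. In the brown fat list 5 of 15 were lower and 2 higher, with a median of -0.57. The 2 higher were Zic1, at 5.62 and 7.24, and Cox7a1, a respiratory subunit that muscle shares, at 9.42 and 10.52. Nearest 0 in that list were Ebf2, at 7.02 and 6.93, and Ppargc1a, at 8.01 and 8.16.

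Lymphocyte genes were lower on the null array, with 35 of 41 B and T cell genes at least 2-fold lower, 0 higher and a median of -2.87. Among B cell and plasma cell genes 16 of 19 were lower. Cr2, the complement receptor of mature B cells, stood at 9.28 and 4.17, or at least 11.6-fold lower, Ms4a1, which encodes CD20, at 9.07 and 4.49, and Ighm, the IgM heavy chain, at 10.93 and 6.45. The 3 that lay within 2-fold were Xbp1, at 9.77 and 9.47, Prdm1, at 5.87 and 6.52, and Tnfrsf17, at 5.89 and 5.99. All 3 are known from plasma cells, and the latter pair lay at background on the WT array. Other plasma cell genes were lower, with Jchain, the joining chain of secreted antibodies, at 6.49 and 4.73 and Mzb1, a chaperone, at 8.30 and 6.65. Among T and natural killer cell genes 19 of 22 were lower, with Il7r at 10.01 and 5.47, Cd3e at 10.12 and 5.89, and Cd8b1 at 10.39 and 6.78. Nearest 0 in that list were Bcl11b, at 8.24 and 8.37, and Ncr1, at 5.99 and 5.12.

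Genes of lymph node structure were lower as well, and most thymus genes lay within 2-fold, as most of all genes did. Glycam1, the ligand of L-selectin on the high venules through which lymphocytes enter nodes, stood at 10.79 and 5.84, or at least 30.8-fold lower. Cxcl13, the follicle chemokine, stood at 11.76 and 7.62, and Ccl19, a T zone chemokine, at 10.97 and 7.57. In that list 5 of 10 were lower. Of 8 genes of thymus and lymphocyte development 1 was lower, against a share of 7.74% over all genes, and the median was 0.01. It was Cd1d1, at levels of 7.74 and 6.09. Ptcra, the pre-T cell receptor chain, stood at 7.49 and 7.42, and Dntt and Rag2 did not pass the level filter.

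Myeloid genes were lower in 5 of 18 cases, with a median of -0.64. The largest differences were those of antigen presentation, with H2-Aa at 10.99 and 7.23 and H2-Ab1 at 11.88 and 8.99, which B cells and dendritic cells share. The macrophage genes Mrc1, at 7.24 and 7.43, C1qc, at 7.80 and 7.55, and Adgre1, at 6.63 and 7.08, lay within 2-fold. Interferon response genes were lower in 10 of 17 cases and higher in 0, with a median of -1.07. Cxcl9, a chemokine that interferon gamma induces, stood at 8.90 and 5.26, or at least 8.89-fold lower, and Oas2 at 8.24 and 6.24. The part of the lymphoid content in the interferon genes was not tested.

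**Figure D4:**
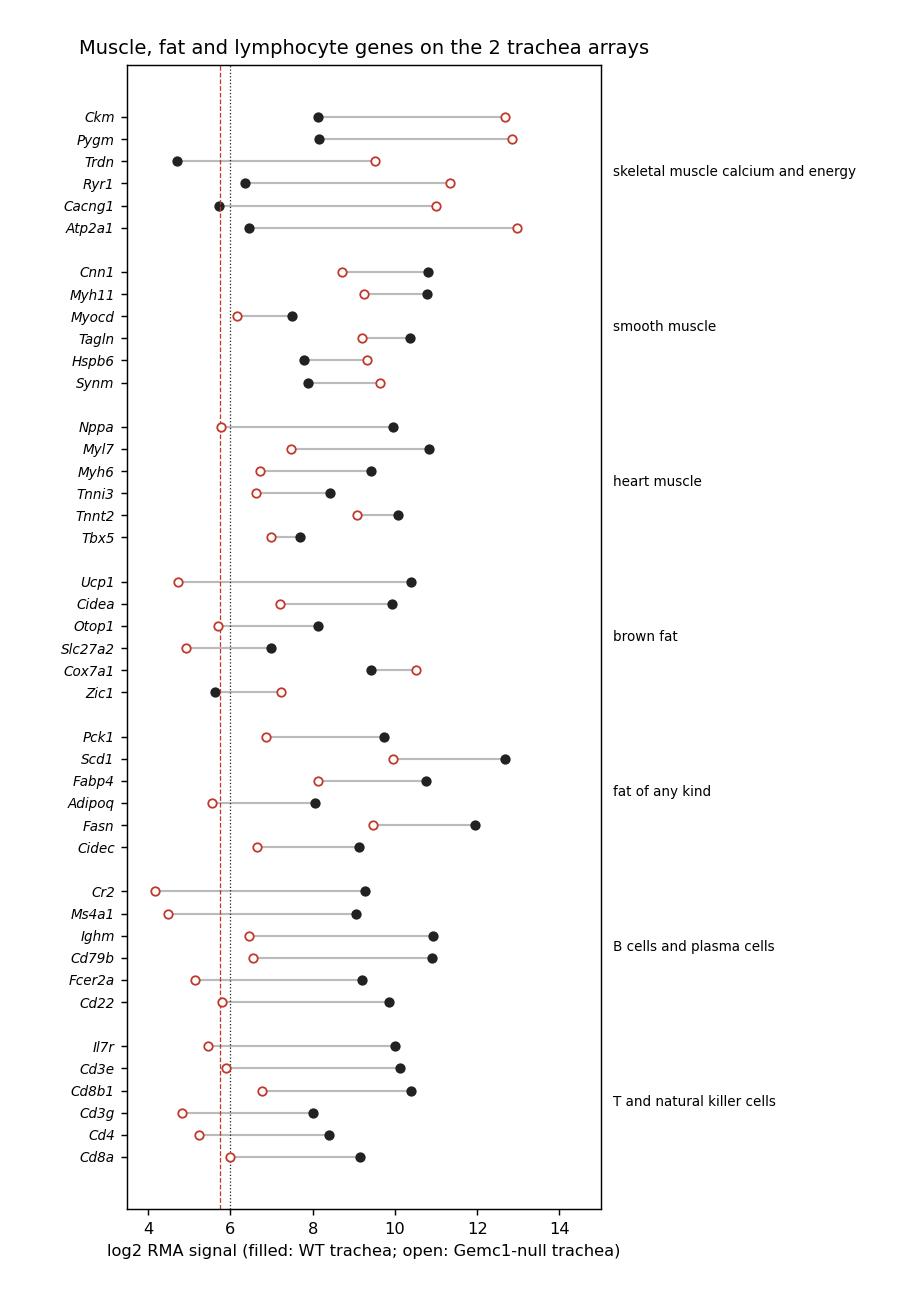
Levels (x axis, log2 RMA signal) of the 6 genes with the largest absolute differences in each of 7 lists of muscle, fat and lymphocytes, filled for the WT trachea array and open for the Gemc1-null array. The vertical lines mark the negative-control medians of 5.98 (WT, dotted) and 5.74 (null, dashed). Open points lie to the right for skeletal muscle, to the left for heart, B and T cell genes and for fat of any kind, and on both sides for smooth muscle and brown fat.

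Cartilage genes were lower in 4 of 18 cases and higher in 1, with a median of 0.02. Col2a1, the main collagen of cartilage, stood at 7.54 and 7.43, and Sox9, its factor, at 7.80 on both arrays. Chad, a cartilage protein that is also in the secretory list, stood at 11.41 and 6.94, or at least 22.2-fold lower, and Prg4, lubricin, at 6.83 and 8.94, or at least 4.33-fold higher. Of 15 fibroblast and matrix genes 1 was lower and 1 higher, shares near the 7.74% and 6.32% over all genes, with a median of 0.17. Of 13 genes of endothelium and blood 2 were lower, against 7.74% over all genes, with a median of -0.17. They were Pecam1 at 9.48 and 7.60 and Ppbp at 9.30 and 7.55. Vwf stood at 7.59 and 7.44. Thyroid and parathyroid genes had no member past 2-fold among 4 that passed, and most of all genes also lay within 2-fold. Tg, the thyroid hormone precursor, did not pass, at 5.89 on both arrays.

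Nerve and glia genes were higher in 5 of 14 cases and lower in 0, with a median of 0.46. Nos1, the neuronal nitric oxide synthase that skeletal muscle also makes, stood at 6.30 and 9.57, or at least 9.64-fold higher, and Th, tyrosine hydroxylase of sympathetic nerves, at 6.34 and 8.16. Cdh19, a Schwann cell cadherin, stood at 7.01 and 8.68, Snap25 at 7.41 and 8.95, and Vip at 5.37 and 6.60. Of 21 cell cycle genes 0 were past 2-fold, against 7.74% lower and 6.32% higher over all genes. Their median was 0.13, and Mki67 stood at 7.84 and 8.10. Immediate early and heat shock genes, which handling of tissue can change, were lower in 2 of 16 cases, against 7.74% over all genes. These were Egr3 at 8.63 and 7.58 and Fosb at 9.32 and 8.28. A part of handling was not tested. A further probe set of Egr3 lay within 2-fold, at a difference of -0.66. The housekeeping list had a median of 0.07, with 2 of 22 lower, a share near that over all genes. They were B2m, the light chain of class I antigens, at 12.83 and 11.14, and Gusb at 8.24 and 7.04.

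**Figure D5:**
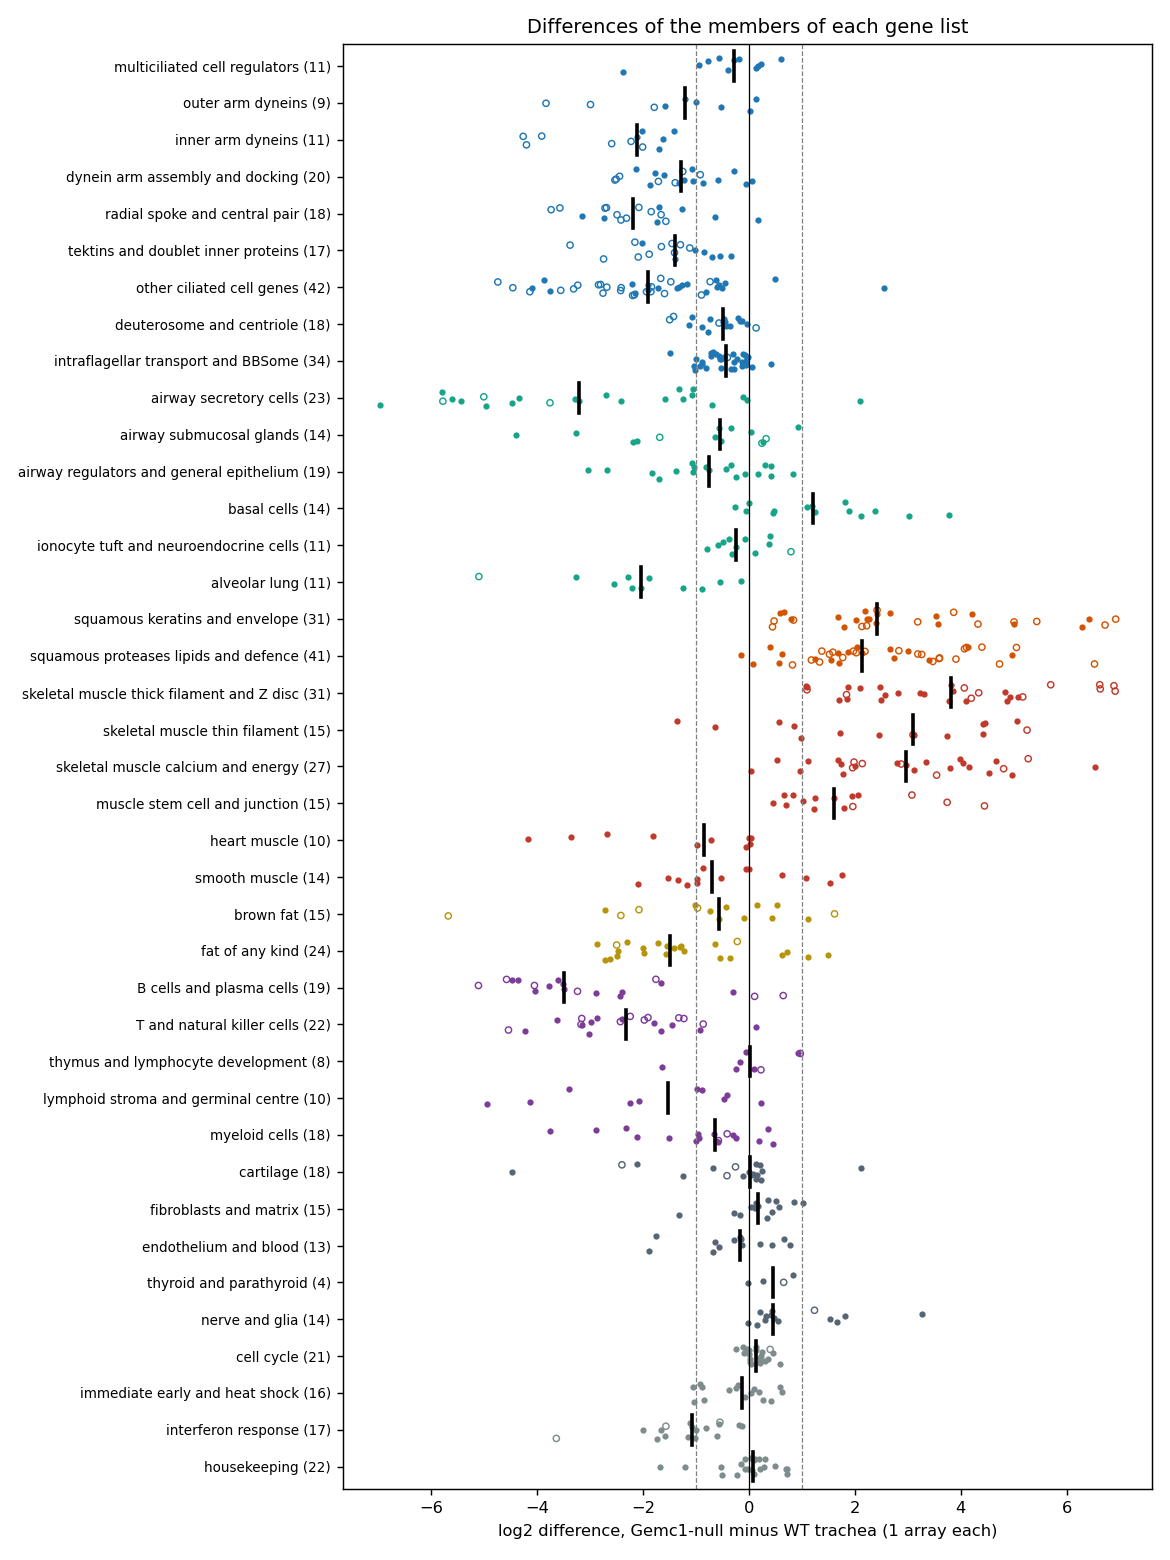
Null minus WT difference (x axis, log2) of every listed gene that passed, 1 point a gene and 1 line a list, with the list's number of genes in brackets and its median as a black bar. Open points are genes whose dimmer level lay below the negative-control median of its array, and dashed lines mark 2-fold. The B cell and secretory lists have the lowest medians, at -3.49 and -3.22, and the thick filament list has the highest, at 3.82.

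Most genes past 2-fold stood in no list. Only 235 of the lower and 159 of the higher genes stood in any list. Among the largest differences outside them, lower genes included the lymphocyte genes Btla, at 10.14 and 5.08, Bank1, at 9.76 and 5.30, Slamf6, at 8.53 and 4.10, and Ptprc, which encodes CD45, at 9.96 and 5.58. Gabrp, an epithelial GABA receptor subunit, stood at 9.92 and 5.20, or at least 18.0-fold lower. A2ml1, a protease inhibitor of the macroglobulin family, stood at 10.72 and 5.21. On the other side, Mt4, a metallothionein of stratified epithelia, stood at 5.98 and 11.62, or at least 49.7-fold higher, Mstn, myostatin, the muscle growth inhibitor, at 4.07 and 9.34, and Klhl31, a muscle kelch protein, at 5.87 and 10.71. Apobec2, a muscle member of the deaminase family, stood at 6.59 and 11.68, which is at least 34.1-fold higher.

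Genes of the secretory, alveolar, fat and lymphoid lists were thus mostly lower together with the cilia genes on 1 array, while squamous and skeletal muscle genes were mostly higher. Their part in the cilia difference was not tested. Dissected tissue content, genotype and the animal cannot be told apart with 1 trachea of each genotype.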

How the data were processed

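Total RNA from freshly dissected tissue was measured on 1-colour Affymetrix whole-transcript arrays, 1 for each tissue and genotype, so the number of arrays limits every value. The deposited table was made with RMA, per the submitters' processing notes, with no version named. Its values are a log2 of the log2 signal: raised to a power of 2, 100% of the deposited values came out with 6 significant digits (relative tolerance 1e-09), against 0.0482% without. All levels here are 2 to the power of the deposited values, read as log2 signal, with no further normalization.

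Of 72688 probe sets, 6732 were controls, 5222 of them negative controls. Of the other 65956, 31236 had 1 gene in the platform annotation, 1514 had several and were not named, and 33206 were not listed. Symbols were updated through a RefSeq table (GRCm38.p6). For 438 genes with several probe sets, the one with the highest mean over both trachea arrays was used, and of 36 such genes past 2-fold, 19 had every probe set past it in that direction. A gene passed at or above the array median (percentile 50) on at least 1 trachea array. Counts are by size, at least 2-fold, with no p-value.

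The 39 lists hold 828 genes, of which 706 passed, and 6 stand in more than 1 list. The members and lists were chosen with earlier results of these data known. Named genes came from a set fixed by rule, and not all of that set are named. It held the 4 markers, the regulators, the 12 largest differences in each direction and the 10 largest outside the lists (predicted genes left out). In each list it held the 5 largest and the 2 nearest 0. Genes named beyond this rule were chosen after their values were seen. Counting by size was run on a copy of the WT array with known shifts added to randomly chosen genes. It held no noise and no gene list, so it checks the counting code alone. Python 3.11.15, pandas 2.3.3, numpy 2.4.6 and matplotlib 3.10.9 were used.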

Additional observations from a re-analysis of the deposited data

Results flagged for a closer look

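7 genes named in the report or in its lists were at least 2-fold lower in 1 tissue and at least 2-fold higher in the other, and the difference between the tissues was not tested. Mlf1, the cilium-associated gene that was higher in the null trachea by 2.54, was lower in the null oviduct, at 7.38 and 5.29, a difference of -2.08. Scgb3a1, with -5.79 in trachea, stood at 6.70 and 7.86 in oviduct, a difference of 1.16. Agr2, an endoplasmic reticulum protein of mucous cells, had trachea levels of 9.46 and 5.70 (-3.76) and oviduct levels of 9.45 and 10.87 (1.43). The immunoglobulin genes were lower in the null trachea and higher in the null oviduct: Ighv1-82 differed by -5.44 and 1.66, Ighv3-6 by -4.83 and 2.97, and Jchain, the joining chain, by -1.76 and 1.60. Segments of an immunoglobulin family share sequence, and how the probe sets divide it is uncertain. Synm differed by 1.76 in trachea and -1.06 in oviduct.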

How the results depend on the processing

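No paired analysis was possible because each group had 1 array. For the same reason no array could be left out. The number of genes at least 2-fold lower, 1559, was 2687 at 1.5-fold, 869 at 3-fold and 458 where only 4358 genes above the 95th percentile of the negative controls were kept. The number higher, 1274, was 2384, 616 and 571 under the same settings. With that filter 13 of 16 motile cilia genes were lower, 36 of 37 squamous genes higher and 21 of 23 B and T cell genes lower. Members mostly pass that filter through the array on which they are high, so these shares show nothing about stability. It leaves few cilia genes because most of them lie within the range of the negative controls, which limits what these arrays can show of them. Centred on general epithelium 58 motile cilia genes were lower, and at 3-fold 10 fat genes were. The counts of secretory and of skeletal muscle genes stayed within 1.5 times under every alternative run: no filter, the mean of a gene's probe sets, levels raised to the negative-control median, 2 centrings (3 for the secretory genes), both fold thresholds and the stricter filter. Of 610 counts of single lists under these alternatives, 534 stayed within 1.5 times. These include counts that were 0 under both settings, so the number is no measure of stability. Medians that changed sign were those of the regulators (0.48), centriole (0.27), transport (0.32), gland (0.20) and rare cell (0.51) lists centred on epithelium, of thymus (-0.04) and cartilage (-0.03) centred on housekeeping genes, and of regulators (0.17), cartilage (-2.12) and immediate early genes (0.10) under the stricter filter. The centrings were built differently: that on all genes (-0.04) and on housekeeping genes (0.05) subtracted the difference of the 2 arrays' median levels, which is not the median of the differences (0.03 and 0.07), and that on epithelium (-0.76) the median of the differences.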

Other observations

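Of the 11 motile cilia genes that were at least 2-fold lower in 1 tissue and not in the other, 6 were lower in trachea: Dnah8, Ccdc114, Rsph9, Cfap53, Stk33 and Capsl. Capsl, a calcium-binding protein of ciliated cells, had trachea levels of 8.21 and 5.45 and oviduct levels of 9.48 and 8.78. The 5 lower in oviduct alone were Tppp3, Cfap99, Morn3, Morn5 and Mlf1. In oviduct Tppp3 stood at 9.77 and 8.57. Dnah8, Ccdc114 and Cfap53 lay close to the 2-fold line in trachea, at -1.01, -1.06 and -1.12. The differences between the tissues were not tested.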
